A study of Lactuca sativa with 36 samples.

Results

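This account follows 2 genes of Italian lettuce, Lsat_1_v5_gn_6_96720 and Lsat_1_v5_gn_9_34941, which the study's annotation places in the glycolysis and gluconeogenesis pathway and which were chosen by their measured FPKM in the RCd1 and RCd0 root libraries, where both were lower on day 1. They are 2 of the 19584 genes in the deposited expression table, and the FPKM (fragments scaled to transcript length and library size) of all isoforms were summed for each gene. Below, gene identifiers are written without the prefix Lsat_1_v5_. Because root levels chose the genes, the changes of root levels with time are given as a description, with no test. A fall below day 0 in roots held for gn_6_96720 with and without melatonin. For gn_9_34941 it held without overlap on day 1 without melatonin only, and in roots that had received melatonin the gene's day 1 and day 0 libraries overlapped.

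The series holds 36 RNA-seq libraries of Lactuca sativa L. var. ramose in 12 groups of 3. Seedlings were grown in nutrient solution with 1 µmol/L melatonin (CdM) or without it (Cd), and were then exposed to 50 µmol/L CdCl2. Roots (R) and leaves (L) were collected at 0, 1 and 5 days of exposure, which gave the groups RCdM0, RCdM1, RCdM5, LCdM0, LCdM1 and LCdM5, and RCd0, RCd1, RCd5, LCd0, LCd1 and LCd5. The labels give 20 days before exposure for 34 libraries and 21 days for 2, replicate 2 of RCdM1 and replicate 2 of LCdM1. The labels also name replicates of a group as biological repeats. Cd-free plants at day 1 or day 5 are not among the samples, so time, plant age and Cd cannot be told apart.

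Glycolysis splits sugars into pyruvate and yields ATP and NADH, and gluconeogenesis runs many of the same steps in reverse. When oxygen is short, as is known in flooded plant roots, pyruvate is decarboxylated and reduced so that NADH is turned back into NAD+. Thiamine pyrophosphate (TPP) is the cofactor with which several enzymes decarboxylate pyruvate and related acids, and oxidoreductases that act on alcohol groups use NAD or NADP as the electron acceptor. The study's annotation gave gn_6_96720 the terms glycolysis and gluconeogenesis, tyrosine metabolism, NAD binding and oxidoreductase activity on CH-OH groups with NAD or NADP. It gave gn_9_34941 the terms glycolysis and gluconeogenesis, TPP binding, acetate metabolic process and anaerobic respiration. No enzyme name was attached to either identifier in the sources used here.

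Replicates of a group correlated at r = 0.954 to 0.978 across genes on the log2(FPKM + 1) scale, and library sums ran from 1259744 to 1426917 FPKM in roots and from 1729631 to 2611849 FPKM in leaves. Read depth per library cannot be read from FPKM, so no counting error is attached to a value. As a check of the tissue labels, the 17 light-harvesting antenna genes of the study summed to 124 to 824 FPKM in root libraries and to 53909 to 125075 FPKM in leaf libraries. Of these 17 genes, 16 were lower in every root library than in every leaf library, and 3 were listed at 0 in some root library. In bulk tissue, fewer cells of a type and less RNA per cell cannot be told apart.

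The gene gn_6_96720 was abundant in roots and had its highest levels on day 0. In roots with melatonin it had 966, 699 and 595 FPKM on day 0, 328, 125 and 118 FPKM on day 1, and 263, 433 and 486 FPKM on day 5. In roots without melatonin it had 938, 1101 and 1898 FPKM on day 0, 253, 289 and 68.5 FPKM on day 1, and 526, 202 and 531 FPKM on day 5. Every day 0 library was thus above every day 1 and day 5 library of the same treatment, while day 5 and day 1 overlapped. By its group mean on day 0, gn_6_96720 ranked 271 from the top of 19584 genes in RCdM0 and 141 from the top in RCd0.

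In leaves gn_6_96720 was far lower and had its lowest group means on day 0. Libraries of day 0 overlapped those of day 1 in both treatments, and those of day 5 with melatonin. Leaves with melatonin had 21.5, 0.867 and 2.02 FPKM on day 0, 16.6, 33.4 and 20.6 FPKM on day 1, and 16.8, 124 and 32.8 FPKM on day 5. Leaves without melatonin had 9.80, 3.18 and 10.8 FPKM on day 0, 58.3, 8.51 and 15.5 FPKM on day 1, and 56.2, 72.6 and 31.7 FPKM on day 5. The spread within a leaf group reached 24.8 times between the highest and the lowest library in LCdM0, where a single library was high.

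The gene gn_9_34941 was a root gene with a wide spread between replicates. In roots with melatonin it had 323, 94.7 and 854 FPKM on day 0, 343, 304 and 218 FPKM on day 1, and 112, 309 and 30.0 FPKM on day 5. In roots without melatonin it had 84.4, 130.3 and 67.5 FPKM on day 0, 40.6, 4.94 and 1.64 FPKM on day 1, and 33.4, 26.4 and 456 FPKM on day 5. The lowest root group was RCd1, and the RCd5 mean of 172 ± 246 FPKM (SD, n = 3) was set by replicate 3. In the 18 leaf libraries the gene ranged between 0 and 2.92 FPKM, with the value of 0 listed in replicate 1 of LCdM1.

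**Figure D1:**
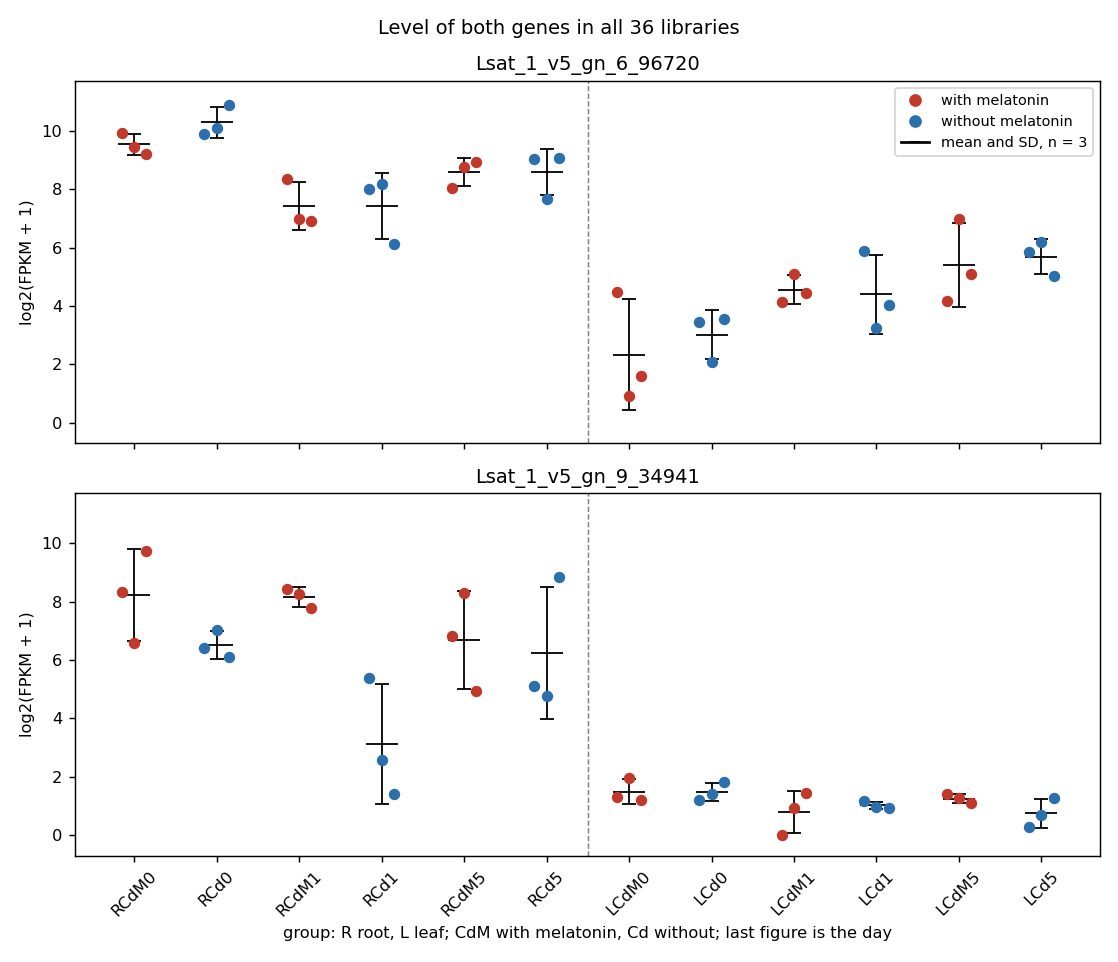
Levels of gn_6_96720 (upper panel) and gn_9_34941 (lower panel) as log2(FPKM + 1) in each of the 36 libraries, by group, with bars at the mean ± SD of 3 libraries. The day 0 root libraries of gn_6_96720 lie above those of day 1, and for gn_9_34941 the RCd1 libraries lie below all RCdM1 and RCd0 libraries.

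Ranked by mean level, the 6 root groups stood above the 6 leaf groups for both genes. For gn_6_96720 the order was RCd0, RCdM0, RCd5, RCdM5, RCd1 and RCdM1, then LCdM5, LCd5, LCd1, LCdM1, LCdM0 and LCd0. Among neighbours in that order the ranges of the libraries overlapped everywhere except between RCdM0 and RCd5. RCdM1 and LCdM5 also overlapped, since the highest LCdM5 library had 124 FPKM and the lowest RCdM1 library 118 FPKM. For gn_9_34941 the order was RCdM0, RCdM1, RCd5, RCdM5, RCd0 and RCd1, then LCdM0, LCd0, LCdM5, LCd1, LCdM1 and LCd5. Only RCd0 and RCd1 did not overlap among those neighbours.

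Over the 12 group means of log2(FPKM + 1) the levels of both genes had a Pearson r of 0.833 (n = 12), with roots and leaves forming separate clusters of points. Over the 6 root group means r was 0.342 (n = 6), over the 18 root libraries 0.335 and over the 18 leaf libraries -0.439. These values are descriptions of libraries that share groups and tissues.

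The change of gn_6_96720 in roots was largest on day 1 and smaller on day 5. The difference in mean log2(FPKM + 1) for day 1 against day 0 was -2.12 with melatonin (190 ± 119 FPKM in RCdM1 against 753 ± 191 FPKM in RCdM0) and -2.86 without it (203 ± 118 FPKM in RCd1 against 1313 ± 514 FPKM in RCd0, SD, n = 3 each). For day 5 against day 0 it was -0.95 with melatonin and -1.70 without. For day 5 against day 1 it was 1.17 with melatonin and 1.16 without, and these groups overlapped. The RCd1 mean was 0.155 of the RCd0 mean, and the RCdM1 mean was 0.252 of the RCdM0 mean. The fall in RCd1 against RCd0 entered the choice of the gene, and the study had listed it for the first day with melatonin too, so neither fall is independent evidence. Among all 17227 genes of the root fit, 15.1% were lower without overlap in RCd1 than in RCd0, 12.9% in RCd5 than in RCd0, 13.1% in RCdM1 than in RCdM0 and 10.1% in RCdM5 than in RCdM0.

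In roots gn_9_34941 was lower without overlap in RCd1 only, among the day 1 and day 5 groups set against day 0. Without melatonin the day 1 mean was 15.7 ± 21.6 FPKM against 94.1 ± 32.5 FPKM on day 0, a log2 difference of -3.40 with no overlap. With melatonin the day 1 mean was 289 ± 64.0 FPKM against 424 ± 389 FPKM on day 0, a log2 difference of -0.07 with overlapping libraries. Day 5 against day 0 gave -1.54 with melatonin and -0.28 without, both with overlap. Without replicate 3 of RCd5 the value without melatonin was -1.58, and without replicate 2 it was 0.45. Day 5 against day 1 gave -1.47 with melatonin and 3.12 without, again with overlap, and 1.82 for the comparison without melatonin when replicate 3 of RCd5 was left out.

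Whether melatonin changed the genes was asked at each day. The choice of the genes rested on root libraries of the first day, and the study had also listed gn_9_34941 for the melatonin comparison of day 1 roots, so the root values of days 0 and 1 are given as a description, with no test. Roots of day 5 and leaves were tested with limma on log2(FPKM + 1), with p adjusted by Benjamini-Hochberg over all genes of the fit. None of these 8 tests on the 2 genes passed an adjusted p of 0.05, and none had an unadjusted p under 0.05. Over all genes, 0% passed in roots of day 5 (706 genes had an unadjusted p under 0.05). In leaves 0.0238%, 0% and 0.0774% passed on days 0, 1 and 5 (757 genes had an unadjusted p under 0.05 on day 1).

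On day 1, gn_9_34941 had 343, 304 and 218 FPKM in RCdM1 roots, against 40.6, 4.94 and 1.64 FPKM in RCd1 roots. All 3 RCdM1 libraries were above all 3 RCd1 libraries, and 16% of all 17227 genes were likewise higher without overlap. The mean was 18.4 times higher in RCdM1, and the difference in mean log2(FPKM + 1) was 5.04. It was between 4.18 and 6.17 when any of the 6 libraries was left out. Since the low RCd1 values entered the choice of the gene, the size of this difference is not independent of that choice. The summed antenna genes gave 145 to 190 FPKM in RCdM1 and 141 to 211 FPKM in RCd1.

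On day 0 the melatonin difference of gn_9_34941 in roots was 1.70, with overlapping libraries. The antenna genes summed to 424 to 824 FPKM in RCdM0 and to 200 to 251 FPKM in RCd0, and their part in this difference was not tested. On day 5 the difference was 0.45 (95% confidence interval -2.08 to 2.97), also with overlap. For gn_6_96720 the root differences were -0.76 on day 0, -0.02 on day 1 and -0.01 on day 5 (95% confidence interval on day 5 -1.20 to 1.18). The libraries of this gene with and without melatonin overlapped on each day.

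In leaves none of the melatonin differences passed. For gn_6_96720 they were -0.69, 0.17 and -0.29 on days 0, 1 and 5 (SE 0.90 each), and for gn_9_34941 0.02, -0.23 and 0.51 (SE 0.34 each).

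**Figure D2:**
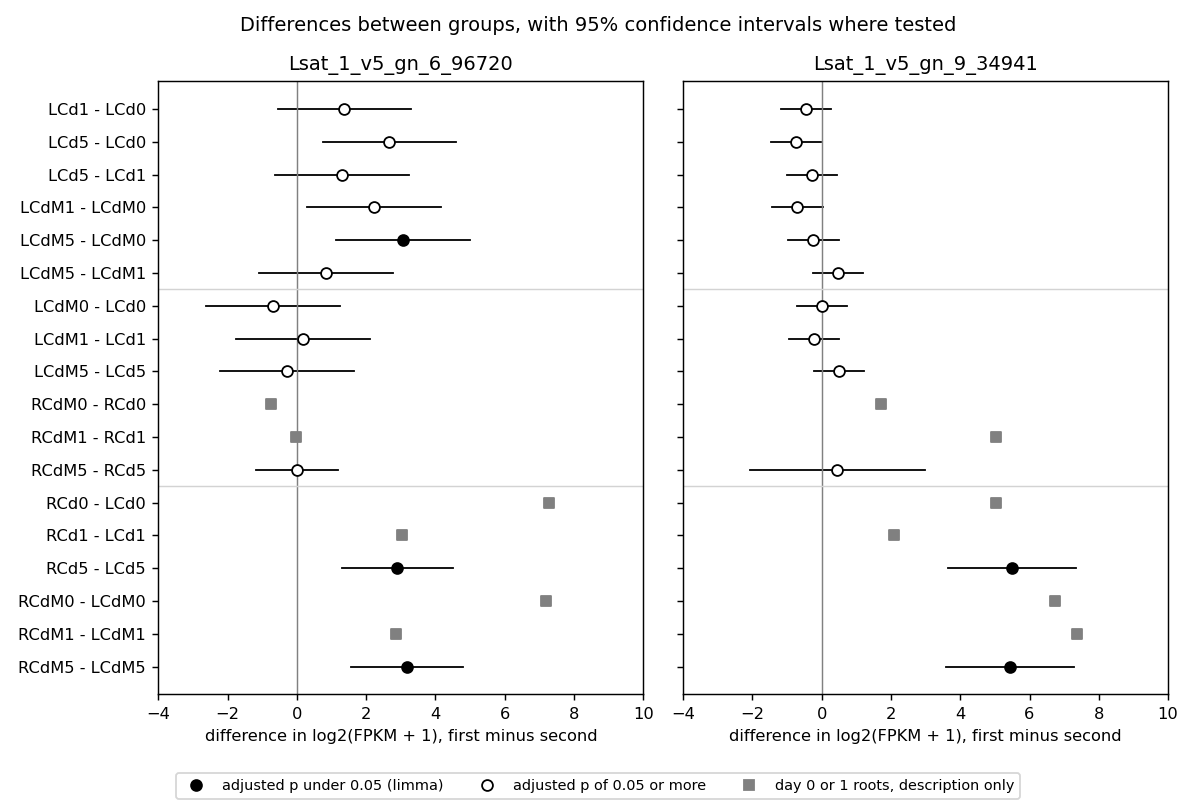
Differences in log2(FPKM + 1), first group minus second, for each gene: circles with 95% confidence intervals are limma tests, filled where the adjusted p is under 0.05, and grey squares are comparisons with day 0 or day 1 roots, shown as values only. Filled are LCdM5 against LCdM0 for gn_6_96720 and, for both genes, RCdM5 against LCdM5 and RCd5 against LCd5. The root against leaf tests are not independent of the choice of the genes.

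Over time in leaves, gn_6_96720 rose between day 0 and day 5 in the melatonin treatment by the test, with a wide spread. In leaves with melatonin it had 16.8, 124 and 32.8 FPKM on day 5, against 21.5, 0.867 and 2.02 FPKM on day 0. The libraries overlapped, because replicate 1 was the lowest on day 5 and the highest on day 0. The log2 difference was 3.07 ± 0.90 (SE, 95% confidence interval 1.14 to 5.00, limma adjusted p = 0.0248), in a comparison in which 22.9% of 16800 genes passed the test and 8.11% passed with a higher level on day 5. The call did not hold without replicate 2 of LCdM0 (2.36, adjusted p = 0.115), without replicate 3 of LCdM0 (2.70, 0.0807), without replicate 2 of LCdM5 (2.29, 0.101) or in a fit of these 6 libraries alone (0.102). Over the same days the summed antenna genes were at 53909 to 69847 FPKM in LCdM5 against 115468 to 125075 FPKM in LCdM0, and their part in this result was not tested.

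In leaves without melatonin gn_6_96720 had 56.2, 72.6 and 31.7 FPKM on day 5, against 9.80, 3.18 and 10.8 FPKM on day 0. The groups did not overlap, as was the case in the same direction for 13.7% of all genes, and the log2 difference was 2.67 ± 0.90 (0.74 to 4.60). The limma adjusted p of 0.0571 missed the threshold, and it was 0.02055 when each library was scaled to the same FPKM sum. That scaling moved the median of all genes in this comparison from -0.07 to 0.26. It also raised the calls from 2793 of 16800 genes to 4065 of 15735. The 4 other time comparisons in leaves gave 0.84 to 2.23 for this gene, with adjusted p between 0.360 and 0.589. For gn_9_34941 the 6 leaf comparisons over time gave -0.73 to 0.46, with adjusted p between 0.159 and 0.670, at levels close to the pseudocount of 1 FPKM. The gene was lower without overlap in LCd1 than in LCd0, as were 15.2% of all genes. Among all genes of the leaf fit, 2.95% passed in LCd1 against LCd0, 16.6% in LCd5 against LCd0, 7.8% in LCd5 against LCd1, 0.256% in LCdM1 against LCdM0 and 12.2% in LCdM5 against LCdM1.

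Both genes were higher in every root library than in every leaf library of the matched group, in all 6 matched groups. Day 0 and day 1 roots bear on the choice of the genes, so only day 5 was tested (limma on all 36 libraries). A gene chosen for a fall in roots has to be expressed there, so the day 5 tests are not independent of that choice either. In RCdM5 against LCdM5 the difference was 3.18 ± 0.78 for gn_6_96720 (SE, adjusted p = 0.000962) and 5.43 ± 0.90 for gn_9_34941 (adjusted p = 8.22e-06). In RCd5 against LCd5 it was 2.90 ± 0.78 for gn_6_96720 (adjusted p = 0.00217) and 5.49 ± 0.90 for gn_9_34941 (adjusted p = 6.4e-06). Of the 18056 genes of this fit, 32.3% passed with a higher level in roots in RCdM5 against LCdM5 and 33.1% in RCd5 against LCd5.

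As a description, the difference of gn_6_96720 was 7.20 and 7.27 log2 units on day 0 with and without melatonin, and 2.85 and 3.04 on day 1. For gn_9_34941 it was 6.73 and 5.04 on day 0, and 7.36 and 2.10 on day 1. Higher levels in roots without overlap were found for 33.6% of genes in RCdM5 against LCdM5, 34.6% in RCdM1 against LCdM1, 35.9% in RCdM0 against LCdM0, 35.4% in RCd5 against LCd5, 35.7% in RCd1 against LCd1 and 33.6% in RCd0 against LCd0.

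The smallest of these differences was that of gn_9_34941 in RCd1 against LCd1. Roots had 40.6, 4.94 and 1.64 FPKM, and leaves had 1.23, 0.950 and 0.921 FPKM. Replicate 1 of RCd1 was the highest root library, and without it the difference was 0.97.

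The table lists 2 isoforms of gn_6_96720, and novel02 carried 78.3 to 93.5% of the gene's FPKM in root libraries (median 87.8%, n = 18). The other, novel01, carried 6.46 to 21.7%. Both isoforms were lower on day 1 than on day 0: in RCd1 and RCd0, novel02 averaged 171 and 1153 FPKM, and novel01 32.3 and 160 FPKM. In leaves novel02 was listed at 0 in 3 libraries, replicate 2 of LCd0 and replicates 2 and 3 of LCdM0, so that the gene's day 0 level there rested on novel01. With novel01 alone, the day 5 against day 0 difference in leaves was 1.58 with melatonin (limma adjusted p = 0.00218) and 1.47 without (0.00522). This setting was chosen after seeing the data, so these p-values are not independent evidence of a rise. In leaves novel01 ran from 0.474 to 8.35 FPKM, near the pseudocount of 1 FPKM at its lower end.

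Of the 4 isoforms of gn_9_34941, MRNA1 and novel03 were the main forms in roots, with median shares of 43.6% and 40.4%, followed by novel01 with 14.8%. The fourth, novel02, was listed at 0 in 17 of 18 root libraries. In RCdM1 novel03 had 193, 145 and 145 FPKM, against 17.3, 1.62 and 0.618 FPKM in RCd1. MRNA1 had 119, 111 and 73.5 FPKM in RCdM1, against 18.0, 2.95 and 0.331 FPKM in RCd1. Both main forms were therefore higher in every RCdM1 library than in any RCd1 library. The novel01 form ranged from 0.00149% of the gene's FPKM in replicate 3 of RCdM1 to 42.3% in replicate 3 of RCd1.

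**Figure D3:**
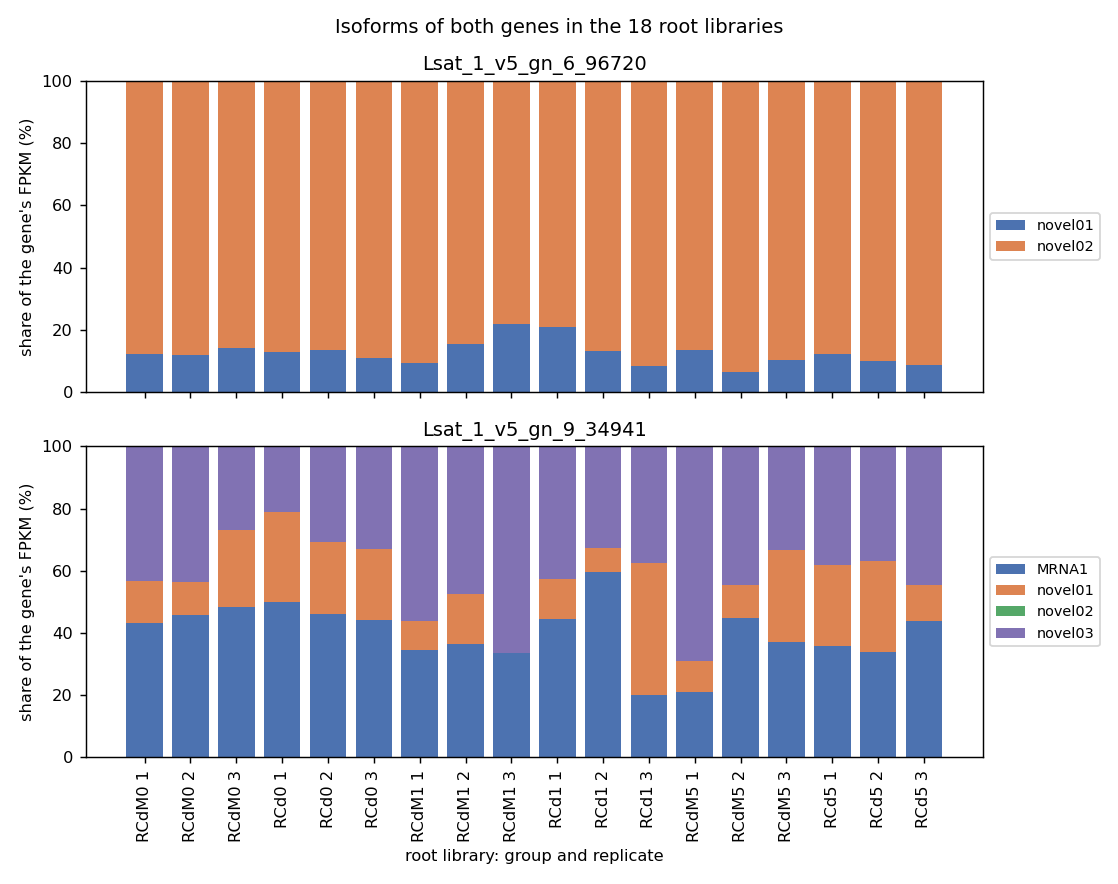
Share of each isoform in the FPKM of gn_6_96720 (upper panel) and gn_9_34941 (lower panel) in the 18 root libraries, in percent. The novel02 form makes up 78.3 to 93.5% of gn_6_96720 in every library, while gn_9_34941 is divided mainly between MRNA1 and novel03.

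The study named 27 other genes for glycolysis and gluconeogenesis, all picked as changed between some of these libraries, so their direction is not independent evidence, and the same holds for the lists that follow. Of the 26 that could be tested in roots, 9 fell and none rose in RCd1 against RCd0, with a list median of -0.71 beside 0.00 for all genes (limma; 15 lower and 1 higher at an unadjusted p under 0.05; 4.89% of all genes fell). The largest falls were those of gn_2_52280 (-1.81), gn_2_52260 (-1.63) and gn_6_102220 (-1.63), and the study had listed 16 of the 27 genes for this same contrast. The largest positive differences, 0.62 for gn_2_95161, 0.45 for gn_7_74640 and 0.22 for gn_8_125881, did not pass. With melatonin, 1 of 26 fell in RCdM1 against RCdM0, gn_6_102220 at -1.54 (list median -0.52; 15 lower and 0 higher at an unadjusted p under 0.05; 0.842% of all genes fell). In leaves 5 of 26 fell and 0 rose in LCd1 against LCd0, with a list median of -0.51 beside -0.06 for all genes. There 10 were lower and 0 higher at an unadjusted p under 0.05 (limma), and 2.95% of all genes passed. With melatonin in leaves, 1 fell and 0 rose in LCdM1 against LCdM0 (list median -0.29, 0.256% of all genes passed). For LCd5 against LCd0, 5 fell and 2 rose (16.6% of all genes passed). A fall of list genes on day 1 was thus not confined to roots. The differences between these comparisons were not tested.

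On day 5, 4 of 26 fell and none rose in RCd5 against RCd0 (11 lower and 2 higher at an unadjusted p under 0.05; 2.98% of all genes fell), with the list median at -0.24. The melatonin comparison on day 1 in roots passed for 1 of the 26, gn_7_116520 (-1.82, limma adjusted p = 0.0374, where 2.43% of all genes fell). It had 2.29 ± 1.24 FPKM in RCdM1 and 10.6 ± 3.76 FPKM in RCd1. In leaves this gene averaged 5660 FPKM in LCd1 and 10184 FPKM in LCd0, so its root values are very low beside its leaf values. On day 5 in leaves with melatonin, 2 of 26 rose and 7 fell against day 0, with gn_2_82001 at 1.69 and gn_7_69401 at -1.57 (8.11% of all genes rose and 14.8% fell). Of the 14 other genes of pyruvate metabolism 6 fell and 0 rose in RCd1 against RCd0 (limma, 9 lower and 2 higher at an unadjusted p under 0.05). For anaerobic respiration 3 of 4 fell and 0 rose (4 lower and 0 higher at an unadjusted p under 0.05). Of 35 tested genes with NAD- or NADP-dependent CH-OH oxidoreductase activity, 11 rose and 10 fell in that comparison (16 higher and 13 lower at an unadjusted p under 0.05). Among all genes, 4.46% rose and 4.89% fell in RCd1 against RCd0.

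On day 1 without melatonin, all 4 other genes with the term TPP binding fell in RCd1 against RCd0 (4.89% of all genes fell). These 4 genes are also on the glycolysis list and are counted in its falls above, so they are not a separate set. Of them, gn_2_52260 and gn_2_52280 are also counted in the anaerobic respiration falls. The gene gn_4_50141 averaged 167 ± 87.9 FPKM in RCd1 and 477 ± 175 FPKM in RCd0. The differences of the 4 genes were between -1.05 and -1.81. In RCdM1 against RCdM0 they were between -0.50 and -1.26 and none passed (limma; 3 of 4 lower at an unadjusted p under 0.05). In RCdM1 against RCd1 the values of the 4 genes ran from -0.19 to 0.40, with none passing (limma; 0 at an unadjusted p under 0.05), and that of gn_9_34941 was 5.04. The difference between these genes and gn_9_34941 was not tested. The 2 genes of this group that also carry the term acetate metabolic process were gn_2_52260, with 153 ± 8.37 FPKM in RCdM1 and 135 ± 77.9 FPKM in RCd1, and gn_2_52280, with 113 ± 19.6 and 109 ± 57.4 FPKM.

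Among the 5 other genes with the term tyrosine metabolism, which gn_6_96720 carries too, 3 fell in RCdM1 against RCdM0, where 0.842% of all genes fell, and 2 fell in RCd1 against RCd0, where 4.89% did. The gene gn_5_103541 averaged 37.0 ± 9.17 FPKM in RCdM1 and 84.0 ± 14.1 FPKM in RCdM0, a difference of -1.18 (limma adjusted p = 0.0178), and 52.9 ± 16.6 FPKM in RCd1 against 88.2 ± 5.90 FPKM in RCd0 (-0.77, adjusted p = 0.0359). The gene gn_6_18741 fell by 1.12 and by 0.71 in the same comparisons. The gene gn_5_14121 passed with melatonin (-0.82, adjusted p = 0.0203) and missed the threshold without it (-0.50, 0.0552). The remaining genes, gn_4_141440 and gn_5_65400, did not pass in either comparison.

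**Figure D4:**
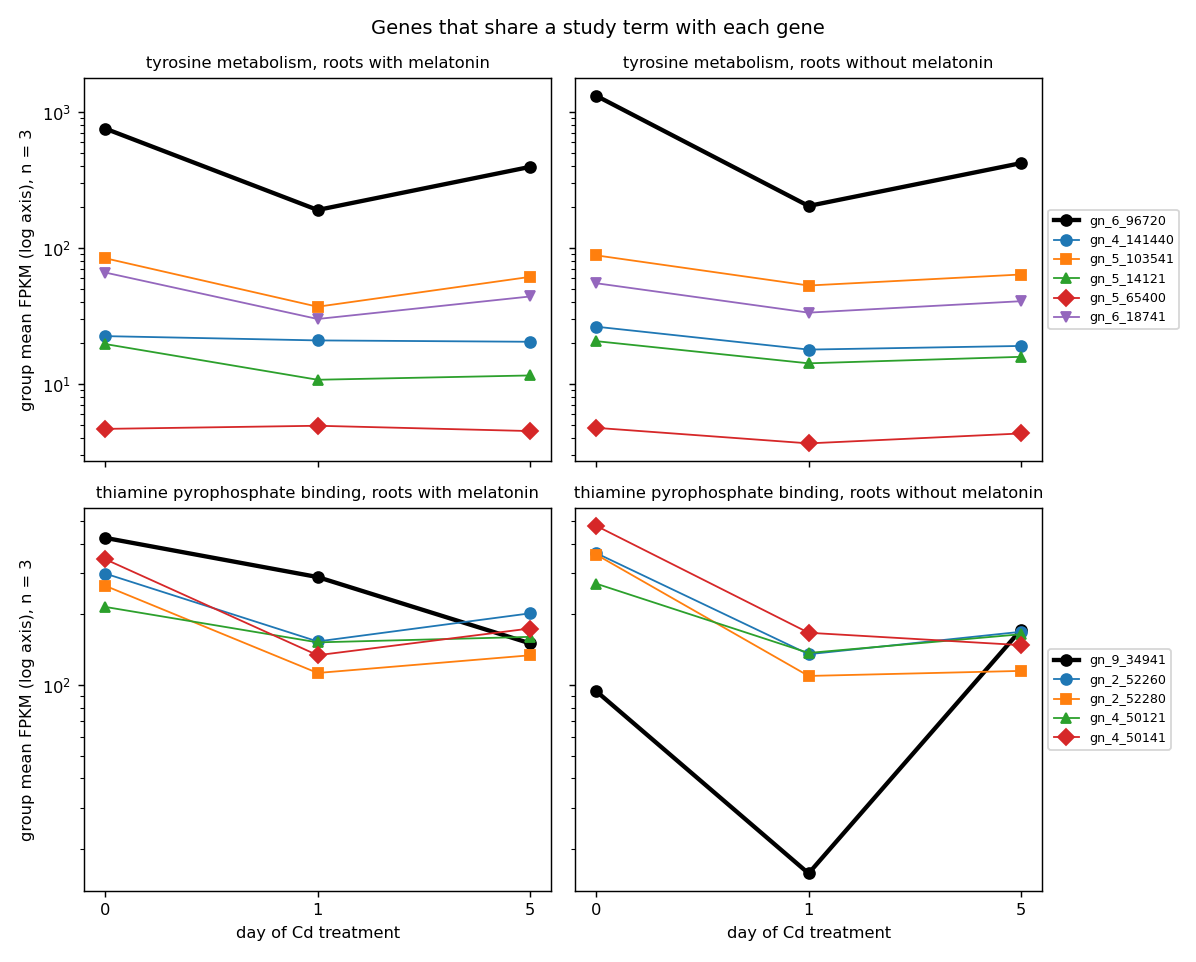
Group mean FPKM on a log axis in roots on days 0, 1 and 5, with melatonin (left) and without (right), for gn_6_96720 and 5 genes of tyrosine metabolism (upper row) and for gn_9_34941 and 4 genes of TPP binding (lower row). The gene gn_9_34941 has a mean of 15.7 FPKM in RCd1 and 289 FPKM in RCdM1, while the 4 other TPP binding genes differ between these groups by -0.19 to 0.40 log2 units.

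Among 10433 genes whose group means reached 10 FPKM and spanned at least 1 log2 unit, those with a pattern most like that of gn_6_96720 over the 12 group means were Novelgene1516 (r = 0.994), gn_5_175680 (0.981), gn_1_68261 (0.977), gn_2_55000 (0.975) and gn_2_125820 (0.972). Novelgene1516 averaged 133 FPKM in RCdM1 and 378 FPKM in RCdM0, and 129 FPKM in RCd1 and 946 FPKM in RCd0. For gn_9_34941 they were gn_4_62920 (r = 0.990), gn_4_106341 (0.985), gn_2_128961 (0.985), gn_1_115840 (0.985) and gn_3_14600 (0.984). The last of these averaged 1110 FPKM in RCdM1 and 76.0 FPKM in RCd1, the same side of the melatonin comparison as gn_9_34941. These genes were picked by group means that include the groups named here, so such likenesses are not independent of the pick. The 12 groups share their tissue step, so these r values describe 12 points that fall into 2 clusters.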

How the data were processed

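The authors deposited FPKM per isoform for 36 libraries. The submitters' processing notes list Bowtie2 2.0.6 and TopHat2 2.0.12, while no source used here names the tool that estimated isoform FPKM. Reads shared by similar genes or isoforms may be divided by that estimate, so isoform values are uncertain. Isoforms were summed per gene and analysed as log2(FPKM + 1), after genes that reached 1 FPKM in fewer than 3 of the fitted libraries had been removed. limma 3.58.1 in R 4.3.3 (lmFit, contrasts, eBayes with trend, two-sided) was fitted on 18 root, 18 leaf or all 36 libraries, with Benjamini-Hochberg adjustment over all genes and a threshold of 0.05. Comparisons that use day 0 or day 1 roots were fitted too, but are given for the 2 genes as values only. The fits were tested on simulated data.

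The members and gene lists were chosen with earlier results of these data known. Named genes are the 2 members, their isoforms above 5% of the gene, the 5 genes most like each by Pearson r over group means, the other genes of the TPP binding, acetate and tyrosine lists, and the 3 largest rises and falls of the glycolysis list per comparison, of which examples are given. No sequence is shown, since 0 of 19584 identifiers matched the RefSeq table used. Alternatives were another pseudocount, no filter, median-ratio and equal-sum scaling, a replicate block, 1 isoform alone, the 2 compared groups alone and each library left out.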

Additional observations from a re-analysis of the deposited data

Results flagged for a closer look

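The gene gn_6_96720 was lower in every RCd5 root library than in every RCd0 root library (a difference of -1.70 in log2(FPKM + 1)), and higher in every LCd5 leaf library than in every LCd0 leaf library (2.67). The opposite directions in the 2 tissues drew attention to it. Among all genes, 12.9% were lower without overlap in RCd5 than in RCd0, and 13.7% were higher without overlap in LCd5 than in LCd0. The share of genes with both changes is not given here, so how unusual the combination is stays unknown. The leaf rise missed the threshold (limma adjusted p = 0.0571). The difference between the tissues was not tested, because the fall in roots chose the gene.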

How the results depend on the processing

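Equal-sum scaling and isoform novel01 alone were chosen after seeing the data. For gn_9_34941 in RCd1 against LCd1, given as a description, the difference was 2.10 as reported. Leaving out the filter, adding a replicate block or fitting the 2 groups alone cannot change a difference of group means. The difference was 2.09 with isoform novel03 alone, and 0.97 to 2.95 with 1 library left out. For gn_9_34941 in RCdM1 against RCd1 it was 4.18 to 6.17 with 1 library left out. For gn_6_96720, LCdM5 against LCdM0 lost its call in the 2 groups alone (3.07, 0.102) and was 2.29 to 4.15 with 1 library left out. LCd5 against LCd0 passed with equal sums (2.84), in the 2 groups alone (2.67) and with novel01 alone (1.47), and novel01 alone also passed in LCd5 against LCd1 (1.42) and LCdM5 against LCdM1 (1.09). The replicate block changed no call of either gene that the text reports. The replicate numbers were not treated as pairs in the main fits, and a check of pairing did not decide whether they are. In 1 of 24 comparisons all same-numbered correlations were over 0.1 (r from -0.40 to 0.32). In 5 of 24 each library correlated best with its own number. Over all genes, RCdM1 against RCd1 gave 1119 calls, and 675 with the block.

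Some differences changed sign under another scaling, with 1 isoform alone or with 1 library left out. For gn_6_96720 in RCdM1 against RCd1 the value was 0.015 with median-ratio scaling, 0.031 with equal sums and 0.086 with novel01, and in LCdM1 against LCd1 -0.072 with novel01. With novel03 alone gn_9_34941 gave 0.46 in LCd5 against LCd1, 0.30 in LCdM1 against LCd1, 0.25 in RCd5 against RCd0 and 0.53 in RCdM1 against RCdM0. With 1 library left out, gn_9_34941 ranged from -0.22 to 0.18 in LCdM0 against LCd0, from -0.55 to 0.17 in LCdM1 against LCd1, from -0.35 to 1.75 in RCdM5 against RCd5, from -1.58 to 0.45 in RCd5 against RCd0 and from -0.89 to 0.69 in RCdM1 against RCdM0. For gn_6_96720 the ranges were -1.77 to 0.023 in LCdM0 against LCd0, -0.41 to 0.91 in LCdM1 against LCd1, -1.07 to 0.33 in LCdM5 against LCd5, -0.67 to 0.36 in RCdM1 against RCd1 and -0.47 to 0.26 in RCdM5 against RCd5. The cause of these changes was not tested.

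Counts of glycolysis genes are given here with the count of the main fit in brackets. In the 2 groups alone, a fit with fewer samples, RCd1 against RCd0 had 2 (9) lower and RCd5 against RCd0 had 1 (4) lower. RCd5 against RCd1 had 0 (1) higher and RCdM1 against RCdM0 had 0 (1) lower. In leaves, LCd1 against LCd0 had 0 (5) lower, LCd5 against LCd0 had 3 (5) lower and LCd5 against LCd1 had 3 (5) higher. LCdM1 against LCdM0 had 0 (1) lower, and LCdM5 against LCdM1 had 0 (3) higher and 0 (4) lower. Over all genes the calls dropped too, from 1612 to 756 in RCd1 against RCd0 and from 496 to 56 in LCd1 against LCd0. In LCdM5 against LCdM1 they dropped from 2052 to 137, so a drop was not particular to this list. No filter gave 2 (4) lower in RCd5 against RCd0. The block gave 1 (0) higher in RCd1 against RCd0, 4 (2) higher in LCdM5 against LCdM0 and 2 (4) lower in LCdM5 against LCdM1. Median-ratio scaling gave 5 (2) higher in LCdM5 against LCdM0 and 2 (4) lower in LCdM5 against LCdM1. A pseudocount of 0.1 gave 2 (1) lower in RCdM1 against RCd1. Equal sums moved the median of all genes to between 0.44 and 0.76 in root against leaf, where both genes still passed on day 5. The deposited files give no read counts, so no counting limit is attached to values near 1 FPKM in leaves.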
